A study of Sus scrofa with 12 samples.

Results

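The tight junction genes described here are 9 genes of the seal between epithelial cells: the claudins CLDN3, CLDN4, CLDN7, CLDN2 and CLDN15, the MARVEL-domain proteins OCLN (occludin) and MARVELD2 (tricellulin), the adhesion molecule F11R (JAM-A) and the scaffold TJP1 (ZO-1). They were chosen by gene symbol in the platform annotation and held 17 of 47722 probe sets, and the 9 genes are among 13538 with a symbol. The array reads a transcript through a probe set, several short probes whose brightness is combined into 1 log2 signal, and a difference of 1 on that scale is a doubling. The main value of a gene is its probe set of the highest mean over all arrays. Of the 17 probe sets 16 passed the filter on low values, a mean above 2.29, and the one that did not was another OCLN probe set with a mean of 1.59, below the highest mean of the negative controls (1.9).

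The study measured the mucosa of the jejunum, the nutrient-absorbing stretch of small intestine after the duodenum, in 12 pigs (Sus scrofa) at an age of 140 days. The labels class 6 of them as high in feed efficiency (label 1) and 6 as low (label 2), and each class holds 3 males and 3 females. Each pig gave 1 biotin-labelled 1-colour array of total RNA, and no treatment, allele or pooling is stated for either group. Breed, diet and the scoring of feed efficiency are not stated in the labels, and the groups are labels on animals rather than an intervention. Replicate numbers are names in accession order, with replicates 1 to 3 male and 4 to 6 female in both groups.

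Tight junctions ring the upper end of the side walls of epithelial cells and set what passes between cells. Claudins form the strands. CLDN3 and CLDN4 tighten the barrier, and CLDN7, found along the side walls of intestinal cells as well, is usually counted with them although its role is debated. CLDN2 and CLDN15 form pores for small cations and, for CLDN2, water, and in the small intestine of mice they return sodium to the lumen for sodium-coupled nutrient uptake. OCLN lies in the strands between cell pairs, MARVELD2 at the points where 3 cells meet, F11R helps place the junction, and TJP1 ties the strands to actin.

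The labelled tissue had its defining markers: in 11 pigs the mean of 11 enterocyte (absorptive cell) genes lay between 9.88 and 11.09 log2 units. Replicate 1 of the high group, a male, was apart from these at 8.64, and its means for goblet, smooth muscle and fibroblast markers were the highest of the 12. Its 5 measured markers of gastric surface and gland cells averaged 9.38, against 4.95 to 6.39 in the other pigs, with TFF2 at 13.41 and the stomach claudin CLDN18 at 6.61 (other pigs 3.76 to 4.56). The main probe sets' differences by feed efficiency, over all pigs and in males, are given with and without it. In bulk mucosa, fewer epithelial cells and less RNA per cell cannot be told apart. The 3 high feed efficiency males also had a narrow spread of all probe sets within the array (SD 2.14 to 2.19), against 2.22 to 2.28 in the low group and 2.18 to 2.27 in the high females. No probe set of 35791 tested passed an adjusted p of 0.05 for feed efficiency in limma, where 2789 had an unadjusted p under 0.05, and none passed for its interaction with sex, where 2395 did so unadjusted.

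By feed efficiency, the largest difference among the 9 main probe sets was that of the sealing claudin CLDN4, lower in the high group by 0.53 log2 units as measured, followed by F11R. The other sealing claudins CLDN3 and CLDN7 and the pore claudins CLDN2 and CLDN15 differed by less than the SD between the 6 high pigs. In the high group 8 of the 9 main probe sets had the lower mean, where 57.2% of all genes did, and the median difference was -0.17 against -0.03 over 12489 genes. All-gene shares given here are not matched for signal, and direction went with signal. Above the 50th percentile of mean signal (4.09), where all 9 lie, 1191 probe sets were lower and 826 higher at an unadjusted p under 0.05. Above the 25th percentile these were 1424 and 1365. None of the 9 passed the adjusted threshold (0.0% of all genes did). At an unadjusted p under 0.05 there were 2 of 9, CLDN4 and F11R, where 7.09% of genes were called, and 3 of the 16 probe sets tested, where 7.79% were. The count of 2 was 0 without high replicate 2, high replicate 3, low replicate 2 or low replicate 3, all male, and 1 without high replicate 4, high replicate 6 or low replicate 5. No member had groups without overlap, where 0.232% of genes did. The members were chosen with earlier results of these data known, so these counts are a description.

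**Figure D1:**
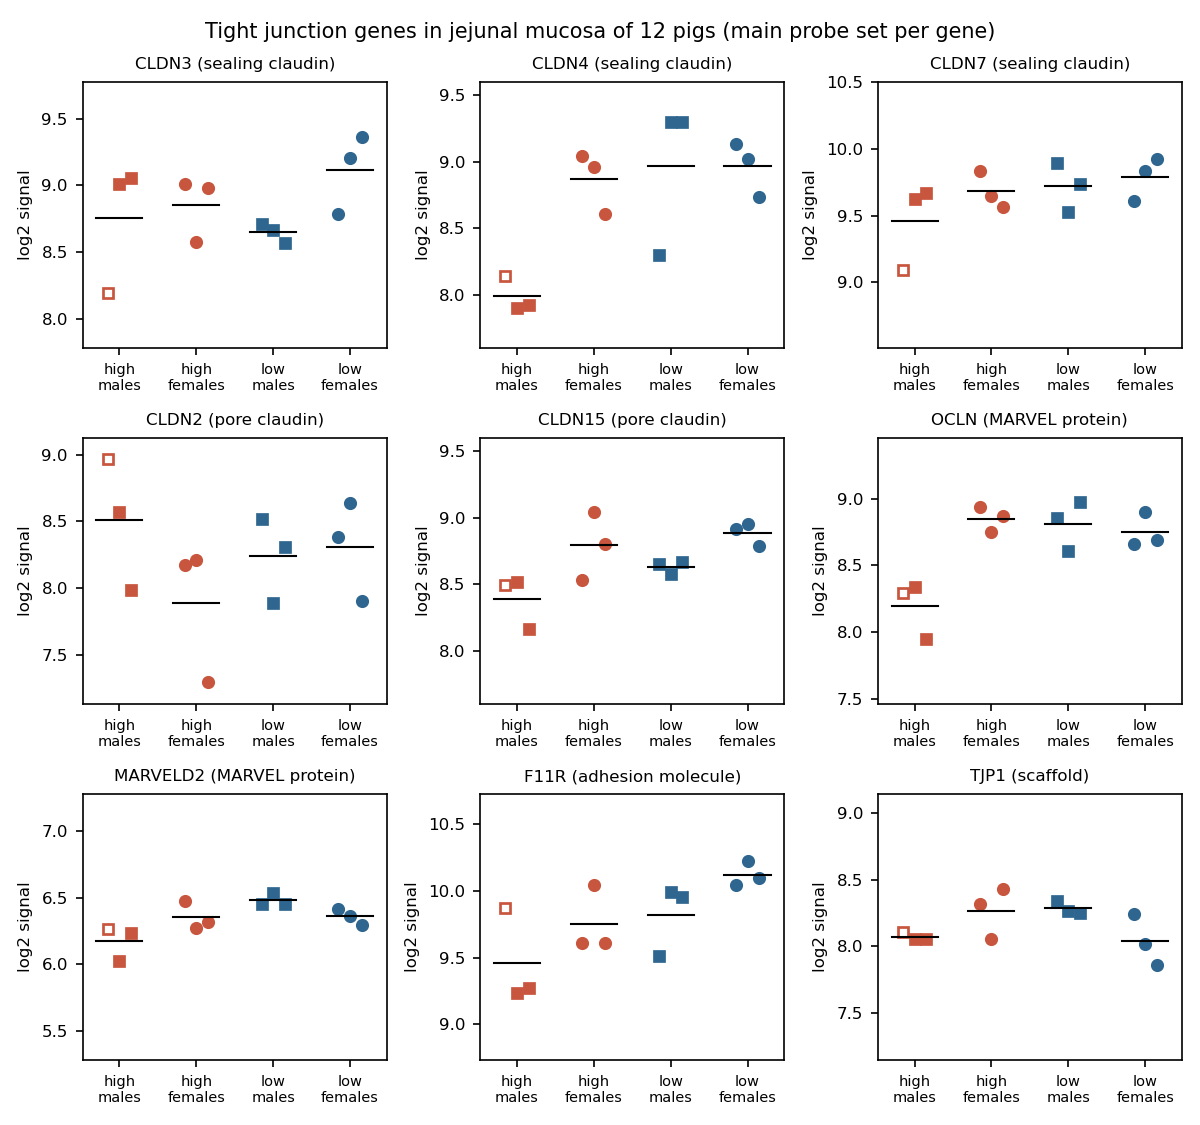
Log2 signal of the main probe set of each of the 9 genes, 1 point per pig (squares males, circles females, red high and blue low feed efficiency), with a line at the mean of 3 pigs and the open square marking high feed efficiency replicate 1. All panels span 2 log2 units; the 3 high males lie below the 3 low males for CLDN4, CLDN15, OCLN, MARVELD2 and TJP1.

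CLDN4, a barrier claudin that binds Clostridium perfringens enterotoxin, ran from 7.91 to 9.04 with a median of 8.38 log2 units in the 6 high feed efficiency pigs, and from 8.30 to 9.30 with a median of 9.08 in the 6 low ones. The low median exceeded all 6 high values, and the 3 lowest values were those of the 3 high males. Means were 8.43 ± 0.510 (SD, n = 6) and 8.97 ± 0.386, a difference of -0.53 (SE 0.216, 95% interval -1.0 to -0.06) or 1.45-fold. The limma adjusted p over all probe sets was 0.630, and the exact two-sided permutation p within sex was 0.045, unadjusted, where 0.005 is the smallest that 400 relabellings allow. The second CLDN4 probe set followed the first across pigs (Pearson 0.86, as a description) and differed by -0.31 (SE 0.244). Without high feed efficiency replicate 1 the CLDN4 difference was -0.52.

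CLDN3, the claudin encoded next to CLDN4 in the pig genome and also an enterotoxin receptor, had overlapping groups. It ran from 8.19 to 9.06 in high pigs (median 9.0) and from 8.57 to 9.37 in low pigs (median 8.75). The lowest value was that of high replicate 1, and the 2 highest were those of low females. Means were 8.81 ± 0.348 and 8.88 ± 0.323 (SD, n = 6), a difference of -0.08 (SE 0.176, 95% interval -0.46 to 0.30). The difference was 0.026 without high replicate 1 and 0.053 after quantile normalization, so its sign was not settled. Over the 12 pigs CLDN3 and CLDN4 had Pearson -0.04 (permutation p 0.905) and Spearman -0.22 (permutation p 0.499). Pearson was -0.33 in males and -0.36 in females, and -0.03 in the high and -0.28 in the low group.

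CLDN7, which also binds EPCAM, had a narrow range apart from 1 pig. It ran from 9.09 to 9.84 in high pigs (median 9.63) and from 9.53 to 9.92 in low pigs (median 9.79). High replicate 1 held the lowest value, and the other 5 high pigs lay between 9.57 and 9.84. The difference was -0.18 (SE 0.131, 95% interval -0.47 to 0.10) with that pig and -0.09 without it. The second CLDN7 probe set, at a mean of 4.87, ran opposite to the first (Pearson -0.51, a description), and with both averaged the difference was 0.011. The main probe sets of CLDN3, CLDN4, CLDN7 and CLDN15 carry the suffix that in Affymetrix naming marks probes matching several transcripts, and signal from related sequences was not tested.

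The pore claudins CLDN2 and CLDN15 had a Pearson r of -0.03 over the 12 pigs. It was 0.29 in males and 0.30 in females, and -0.23 in the high and 0.49 in the low group. CLDN2, an X-linked gene, had the widest main-probe-set range of the 9, 1.67 log2 units or 3.19-fold. Its values in high pigs ran from 7.29 to 8.97 (median 8.19) and in low pigs from 7.89 to 8.64 (median 8.35). High pigs held both ends: the highest was male replicate 1 and the lowest female replicate 6. Means were 8.20 ± 0.565 and 8.27 ± 0.314 (SD, n = 6), a difference of -0.07 (SE 0.240, 95% interval -0.60 to 0.45) that was -0.21 without high replicate 1 and 0.027 after quantile normalization. The second CLDN2 probe set gave the same difference, -0.07 (SE 0.305).

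CLDN15, the other cation pore of the small intestine, ran from 8.16 to 9.04 in high pigs (median 8.52) and from 8.58 to 8.95 in low pigs (median 8.73). Replicates 1 to 4 of the high group were below every low pig, and the highest of all 12 was high female replicate 5. The difference was -0.17 (SE 0.116, 95% interval -0.42 to 0.09, limma adjusted p 0.736) for the main probe set and -0.37 (SE 0.193) for the second. CLDN15 correlated with the spread of the arrays (Pearson 0.90, permutation p 3.0e-05, Benjamini-Hochberg adjusted 0.00324 over 108 relations; Spearman 0.84, adjusted 0.0578), with r 0.82 without the 2 arrays farthest from the median spread. Within the high and low groups r was 0.98 and 0.56. With that spread as a covariate the difference by feed efficiency was 0.051 (SE 0.125) and 0.096 for the second probe set, so its sign turned.

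Sealing and pore claudins were then set against each other within each pig. Each gene was centred on its own mean over 12 pigs, because signals of different probe sets cannot be compared, and the mean of CLDN2 and CLDN15 was subtracted from that of CLDN3, CLDN4 and CLDN7. In high pigs the balance was -0.87, -0.31, 0.20, 0.33, -0.18 and 0.39 log2 units for replicates 1 to 6. In low pigs it was -0.23, 0.32, 0.10, -0.08, -0.05 and 0.38. The groups overlapped, and high replicates 1 and 2 lay below every low pig. High replicate 1 had the lowest CLDN3 and CLDN7 and the highest CLDN2 of all 12.

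Group means of this balance were -0.07 ± 0.481 and 0.07 ± 0.241 (SD, n = 6), a difference of -0.14 that was 0.015 without high replicate 1. It was -0.12 after quantile normalization and -0.19 with CLDN3 and CLDN4 alone as sealing claudins. The high males averaged -0.33 and the low males 0.06, and the high and low females 0.18 and 0.08. The sealing mean by itself differed by -0.26 and the pore mean by -0.12. In the sealing mean the 3 high males lay below the 3 low males, as 8.19% of single genes did. Of its genes only CLDN4 was separated that way in males, while CLDN3 and CLDN7 overlapped. In high replicates 2 and 3 CLDN4 lay at -0.79 and -0.77 from its mean, and CLDN3 at 0.17 and 0.21. No test is given for these scores, which are built from chosen genes.

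**Figure D2:**
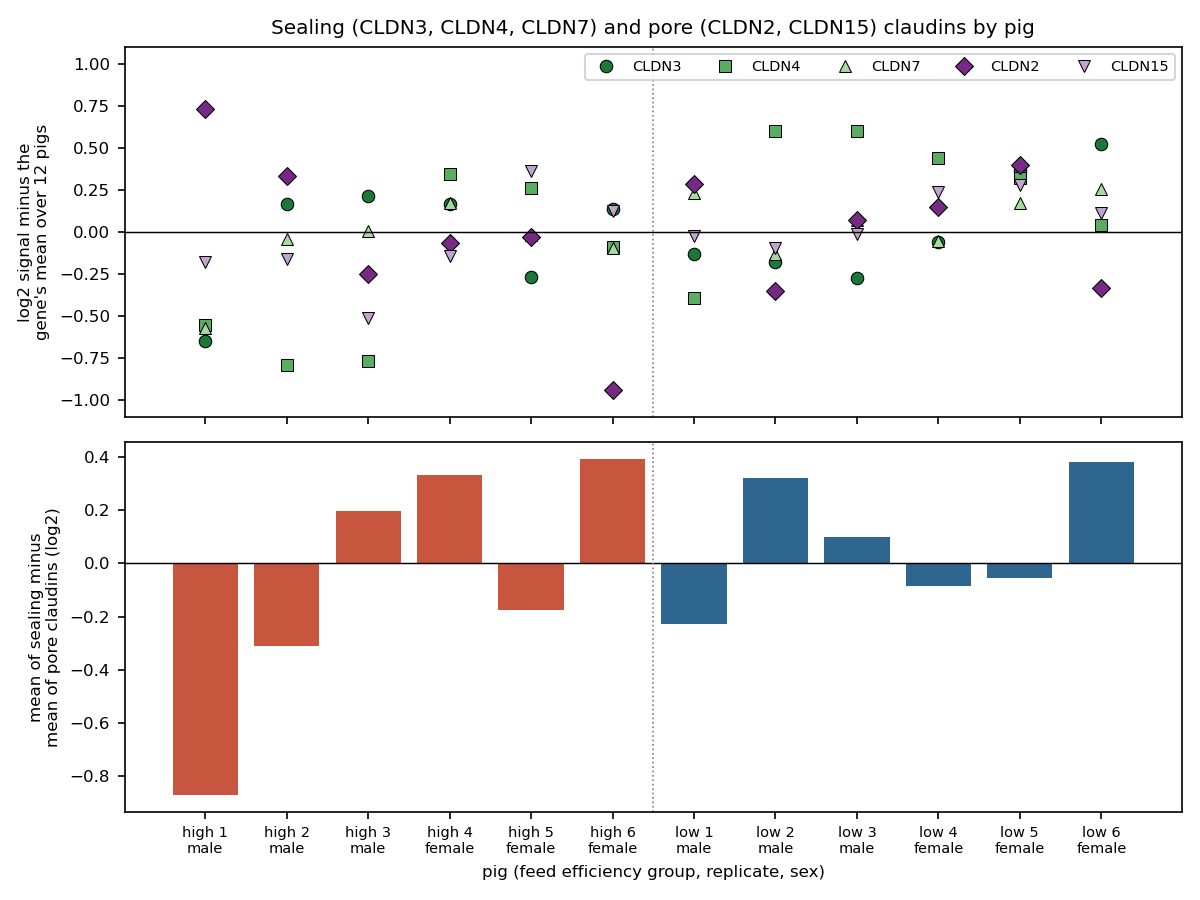
Upper panel: log2 signal of 5 claudins minus each gene's mean over 12 pigs, by pig. Lower panel: mean of the sealing claudins minus mean of the pore claudins (red high, blue low feed efficiency), which runs from -0.87 in high replicate 1 to 0.39 in high replicate 6 and overlaps between the groups.

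Of the proteins that complete the strand, OCLN and F11R had the larger differences. OCLN ran from 7.95 to 8.94 in high pigs (median 8.55) and from 8.61 to 8.97 in low pigs (median 8.77). The 3 high males, at 8.30, 8.34 and 7.95, were the lowest of the 12, while the 3 high females lay within the range of the low pigs. The difference was -0.26 (SE 0.152, 95% interval -0.59 to 0.07, limma adjusted p 0.697). The second OCLN probe set, at a mean of 7.27, differed by more: -0.64 (SE 0.176, 95% interval -1.02 to -0.26, limma adjusted p 0.6), with an exact permutation p of 0.015, unadjusted. In it the 4 lowest pigs were the high males and high female replicate 4, at 6.67, 6.60, 6.42 and 6.91, below the lowest low pig at 7.24. That difference was -0.62 without high replicate 1 and -0.60 after quantile normalization, and -0.23 (SE 0.164) with the array spread as a covariate.

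F11R, which recruits polarity proteins to the forming junction, ran from 9.24 to 10.04 in high pigs (median 9.61) and from 9.51 to 10.23 in low pigs (median 10.02). The low median exceeded 5 of the 6 high values, and the groups overlapped. Means were 9.61 ± 0.319 and 9.97 ± 0.244 (SD, n = 6), a difference of -0.36 (SE 0.146, 95% interval -0.68 to -0.05, limma adjusted p 0.630) with an exact permutation p of 0.03, unadjusted. The second probe set, which followed the first closely (Pearson 0.95, a description), differed by -0.35 (SE 0.188). High replicate 1 was the highest high male, at 9.87, and without it the difference was -0.46. F11R also correlated with array spread (Pearson 0.82, adjusted permutation p 0.0648; Spearman 0.85, adjusted 0.0578), with r 0.76 without the 2 farthest arrays. For CLDN4 the relation was Pearson 0.68 (adjusted permutation p 0.223) and Spearman 0.50 (adjusted 0.477). For OCLN it was Pearson 0.63 (adjusted permutation p 0.223) and Spearman 0.27 (adjusted 0.732). For CLDN4 and OCLN r was 0.85 and 0.83 in males, and -0.07 and -0.43 in females.

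MARVELD2 and TJP1 varied least between pigs. MARVELD2, encoded beside OCLN, ran from 6.03 to 6.48 in high pigs (median 6.27) and from 6.30 to 6.54 in low pigs (median 6.43), and 4 high pigs lay below every low pig. Its difference was -0.15 (SE 0.103, 95% interval -0.38 to 0.07), with an exact permutation p of 0.05, unadjusted. TJP1 ran from 8.05 to 8.43 in high pigs (median 8.08) and from 7.86 to 8.34 in low pigs (median 8.25). Its means were 8.17 ± 0.165 and 8.16 ± 0.185 (SD, n = 6), a difference of 0.0048 (SE 0.123, 95% interval -0.26 to 0.27). Their SDs over 12 pigs, 0.139 and 0.167, exceeded those of 3.32% and 8.11% of the 35791 probe sets tested, whose median was 0.310. The SD of CLDN4, 0.513, exceeded that of 82.1% and the SD of CLDN2, 0.438, that of 74.1%.

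The differences depended on how arrays were put on a common scale. After quantile normalization, which equalizes their spread, CLDN4 differed by -0.42, F11R by -0.22, OCLN by -0.15, MARVELD2 by -0.13, CLDN7 by -0.03 and CLDN15 by -0.05, and 0 of the 9 genes had an unadjusted p under 0.05. With the array spread as a covariate CLDN4, F11R, OCLN and MARVELD2 differed by -0.33, -0.14, -0.15 and -0.17, again with 0 of 9, and the SE of CLDN4 grew to 0.288. That spread comes from these same arrays and was lower in the 3 high males (2.14 to 2.19) than in the 3 low males (from 2.22), so in males its part cannot be told apart from that of feed efficiency. Under that covariate the differences of CLDN4, F11R and OCLN were smaller than as deposited, and that of MARVELD2 slightly larger. The second CLDN4 probe set grew from -0.31 to -0.41 (SE 0.338). CLDN3 also grew, to -0.32 (SE 0.219), its second probe set to -0.60 (SE 0.271) and CLDN7 to -0.31 (SE 0.172). The second F11R probe set shrank to -0.023 (SE 0.218). The signs for CLDN4, F11R, OCLN and MARVELD2 were the same in these settings. Without high replicate 1 the differences of OCLN, MARVELD2, CLDN15 and TJP1 were -0.24, -0.16, -0.18 and 0.022.

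**Figure D3:**
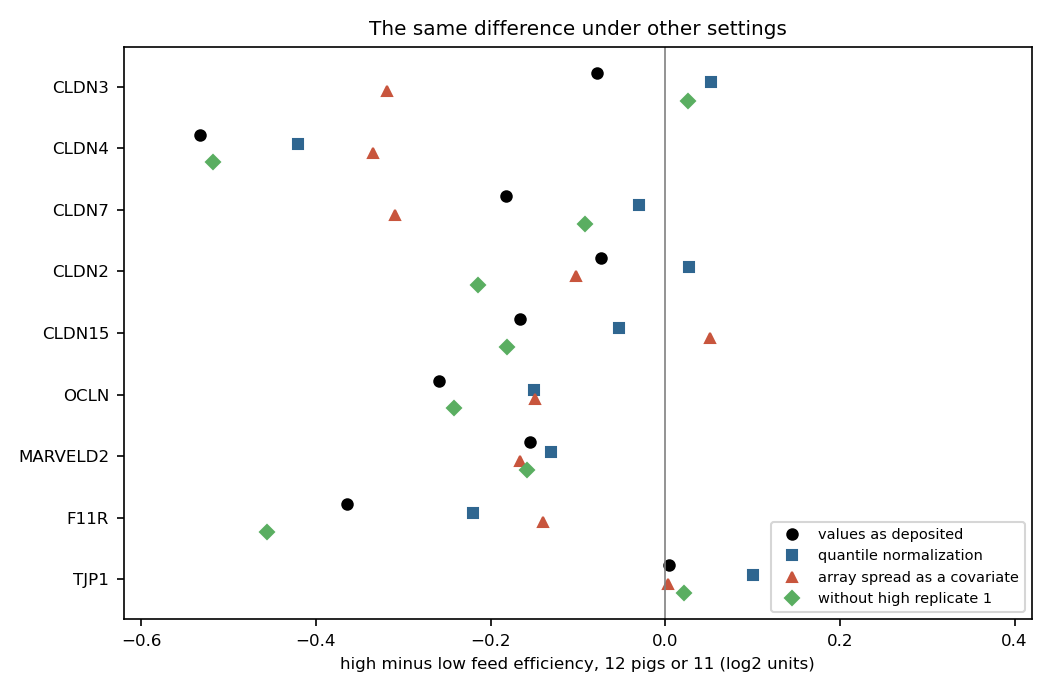
High minus low feed efficiency difference (log2 units) of the main probe set of each gene for the values as deposited and for 3 other settings. CLDN4, CLDN7, OCLN, MARVELD2 and F11R lie left of 0 in every setting drawn, and CLDN3, CLDN2 and CLDN15 cross 0 in at least 1.

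Within each sex the picture was uneven. In males CLDN4 was 8.14, 7.91 and 7.93 in high and 8.30, 9.30 and 9.30 in low feed efficiency pigs, with no overlap. The difference was -0.97 (SE 0.259, 95% interval -1.54 to -0.41) or 1.96-fold, with a limma adjusted p of 0.367. In females CLDN4 was 9.04, 8.96 and 8.61 in high and 9.14, 9.02 and 8.74 in low pigs, a difference of -0.09 (SE 0.259). The difference between the sexes, tested as an interaction, was -0.88 (SE 0.366, 95% interval -1.68 to -0.08) with a limma adjusted p of 0.743, and so did not pass.

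OCLN had the same shape. In males it was 8.30, 8.34 and 7.95 in high and 8.85, 8.61 and 8.97 in low pigs, which differ by -0.62 (SE 0.164, limma adjusted p 0.367). In females it was 8.94, 8.75 and 8.87 against 8.66, 8.90 and 8.69, a difference of 0.10 (SE 0.164). The interaction was -0.72 (SE 0.232, 95% interval -1.23 to -0.21, limma adjusted p 0.743). The second OCLN probe set differed by -1.01 in males and -0.27 in females (interaction -0.73, SE 0.294). Without high replicate 1 the male differences were -1.05 for CLDN4 and -0.67 for OCLN, and after quantile normalization -0.82 and -0.48.

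For the other 7 genes the sexes were closer or the intervals wide. In males MARVELD2 differed by -0.30 (SE 0.135), F11R by -0.36 (SE 0.215), TJP1 by -0.22 (SE 0.153), CLDN15 by -0.24 (SE 0.166) and CLDN7 by -0.26 (SE 0.189), while CLDN3 and CLDN2 were at 0.11 (SE 0.247) and 0.27 (SE 0.323). In females F11R differed by -0.37 (SE 0.215), nearly the same as in males, CLDN2 by -0.42 (SE 0.323), CLDN3 by -0.26 (SE 0.247) and TJP1 by 0.23 (SE 0.153). CLDN2, CLDN3 and TJP1 thus had opposite signs in the sexes, with interactions of 0.69 (SE 0.456), 0.37 (SE 0.349) and -0.44 (SE 0.217) that did not pass. Without high replicate 1 the male differences were -0.074 for CLDN7, 0.040 for CLDN2, 0.39 for CLDN3, -0.56 for F11R, -0.35 for MARVELD2, -0.29 for CLDN15 and -0.23 for TJP1. The interaction of CLDN3 was then 0.65 (SE 0.278), at an unadjusted p under 0.05, and that of CLDN2 0.46 (SE 0.455).

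In males 5 of the 9 genes, CLDN4, CLDN15, OCLN, MARVELD2 and TJP1, had all 3 high pigs below all 3 low pigs, where 8.19% of all genes did. In females 0 of 9 were separated that way, where 7.69% were. At an unadjusted p under 0.05, 3 of 9 were called in males (8.78% of genes), 0 in females (4.59%), and 2 for the interaction (6.68%). The 2 were 1 without high replicate 2, 3 or 4 or low replicate 2, 3 or 6, and the 0 in females was 1 without high replicate 5. After quantile normalization 3 of the 5 were still separated in males, CLDN4, OCLN and MARVELD2, where 6.53% of genes were lower without overlap, and 1 of 9 was separated in females, F11R (7.69%). Without high replicate 1, 6 of 9 lay below in males, with F11R added, where 16.9% of genes did, and CLDN3 lay above. The 9 genes vary together in part and share the 6 males, so they are not 9 separate observations. T cell markers went the same way: all 6 had the lower mean in the high group, 3 of them at an unadjusted p under 0.05 and none adjusted (57.2% of all genes were lower and 7.09% called), and their summed level, as a mean, ran from 7.51 to 7.78 in high males and from 8.22 to 8.38 in low males. In males all 11 enterocyte genes were also lower (median -0.85, none adjusted), where 51.6% of all genes were. High replicate 1 was at a mean of 8.64 and the other high males at 10.73 and 10.61, against 10.44 to 11.09 in low males. All 6 fibroblast genes were higher in males (median 0.50). Their mean was 10.05 in high replicate 1 and 9.74 and 9.14 in the other high males, against 8.90 to 9.46 in low males. The 5 gastric genes were all higher too (median 1.05). For these the high males other than replicate 1 were at 5.21 and 5.56 and the low males at 5.43 to 5.96. In females 9 of 11 enterocyte genes were higher, and 5 of 6 fibroblast and 5 of 5 gastric genes lower. The part of these marker lists in the result was not tested.

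**Figure D4:**
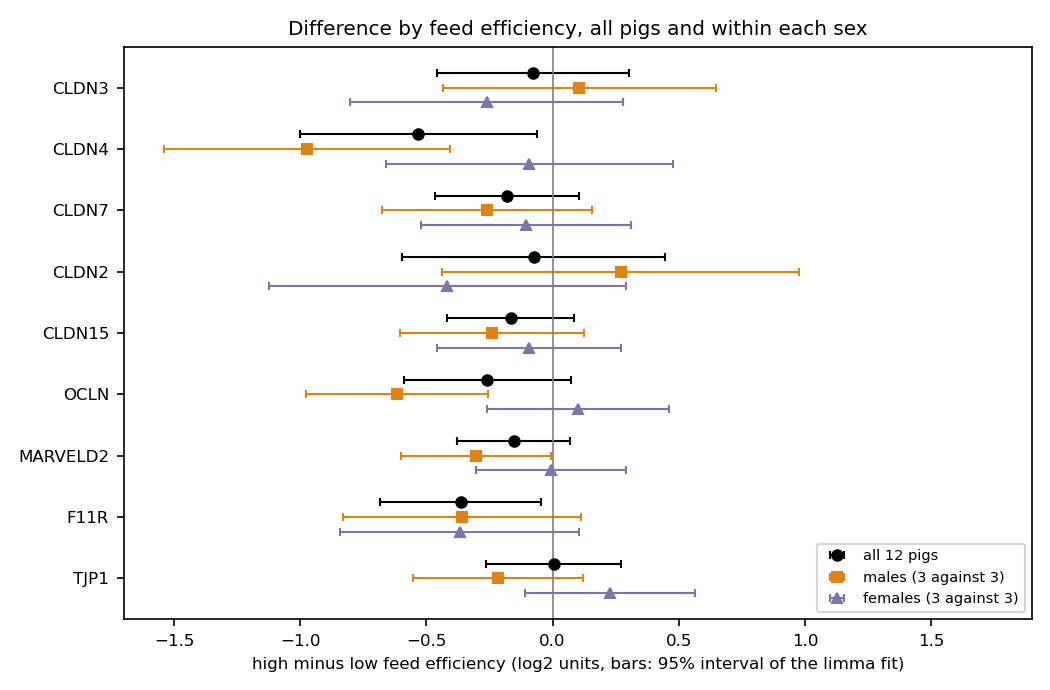
High minus low feed efficiency difference (log2 units) with the 95% interval of the limma fit, over 12 pigs (black), in males (orange squares) and in females (purple triangles). In males the intervals of CLDN4, OCLN and MARVELD2 lie below 0, and in females every interval includes 0.

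Sex itself was compared in the same fit. Over all pigs 7 of the 9 genes had the lower mean in males, where 52.9% of genes did, and 1 had an unadjusted p under 0.05, CLDN15, where 8.9% of genes were called (0.0168% of probe sets after adjustment). That count was 2 or 3 without high replicate 1 or low replicate 2, 3, 4 or 6. CLDN15 averaged 8.51 in the 6 males and 8.84 in the 6 females, a difference of -0.33 (SE 0.116, 95% interval -0.58 to -0.07, limma adjusted p 0.488), and its second probe set differed by -0.52 (SE 0.193). CLDN4 was at -0.44 (SE 0.216), OCLN and F11R both at -0.30 (SE 0.152 and 0.146) and CLDN3 at -0.29 (SE 0.176). CLDN2 was at 0.27 (SE 0.240) by its main and -0.09 (SE 0.305) by its second probe set. Without high replicate 1 F11R was at -0.39, CLDN3 at -0.18, CLDN7 at -0.055 and CLDN2 at 0.13. After quantile normalization CLDN15 was at -0.20 and 0 of the 9 genes had an unadjusted p under 0.05.

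Which junction genes varied together across pigs was asked for all 36 pairs of the 9 genes. None passed adjustment over the 36 by Pearson or Spearman, and 8 had an unadjusted Pearson permutation p under 0.05. CLDN4 correlated with F11R (Pearson 0.75, permutation p 0.00592, adjusted 0.0681; Spearman 0.61, permutation p 0.0397), MARVELD2 (Pearson 0.74, adjusted permutation p 0.0681; Spearman 0.83, adjusted 0.0540) and OCLN (Pearson 0.72, adjusted permutation p 0.0681; Spearman 0.58, adjusted 0.310). Without the 2 pigs farthest from the CLDN4 median r was 0.47, 0.53 and 0.44. Array spread also varied with CLDN4, F11R, OCLN and, most closely of the 9 genes, CLDN15 (Pearson 0.90). Its part in these correlations and in those that follow was not tested. CLDN15 correlated with F11R (Pearson 0.72, adjusted permutation p 0.0681; Spearman 0.72, adjusted 0.188) and CLDN3 with CLDN7 (Pearson 0.71, adjusted permutation p 0.0791; Spearman 0.55, adjusted 0.344), with r 0.59 and 0.20 without the 2 farthest pigs.

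Part of this lay between the groups of sex and feed efficiency. Taken as deviations from those 4 means, CLDN4 and OCLN had r -0.03, CLDN4 and MARVELD2 0.40, CLDN4 and F11R 0.63, and CLDN3 and CLDN7 0.82. The pore claudins CLDN2 and CLDN15 had r -0.03 (permutation p 0.919; Spearman -0.07) and 0.46 as deviations. CLDN3 and F11R, at -0.10 as measured, had -0.71 as deviations. Their r as measured was -0.76 within the high group but 0.55 within the low, and -0.79 in males but 0.14 in females. The part of high replicate 1 in these values was not tested. Among marker lists, F11R followed the 7 goblet cell genes (Pearson 0.75, adjusted permutation p 0.202; Spearman 0.77, adjusted 0.179) with r 0.87 without the 2 pigs farthest from the median of that list.

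**Figure D5:**
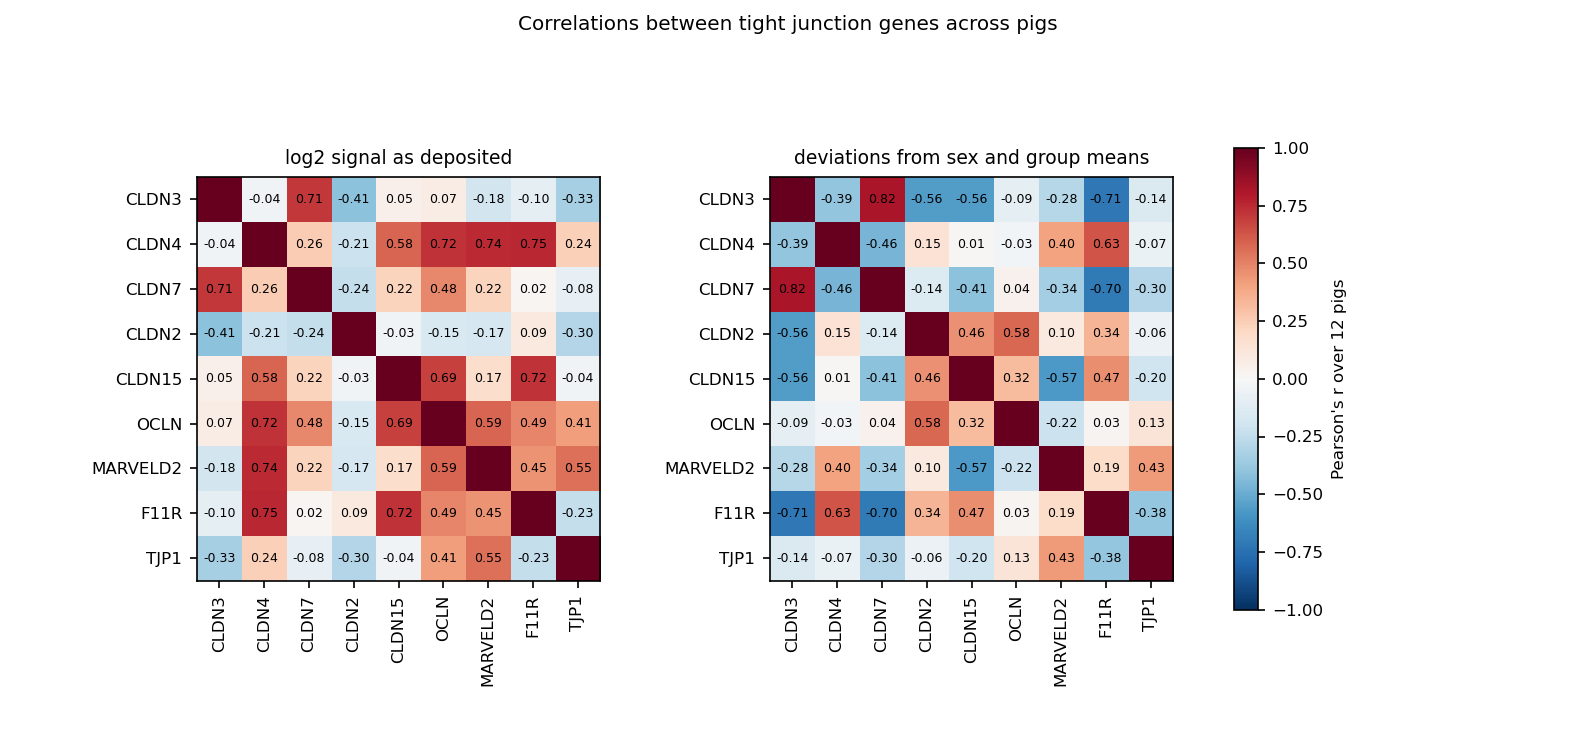
Pearson's r over 12 pigs between the 9 genes, from the log2 signal (left) and from deviations from the means of sex and group (right). The block of CLDN4 with OCLN, MARVELD2 and F11R on the left, 0.72 to 0.75, loses OCLN on the right (-0.03), where CLDN3 and CLDN7 stand at 0.82.

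The genes whose main probe sets were most like each member over the 12 pigs are given as a description, out of 12480 genes searched. Taken as deviations from the means of sex and group, their r ran from 0.56 (ADIPOR2 with OCLN) to 0.96 (SP2 with F11R). The part of array spread and of high replicate 1 in these values was not tested. For CLDN4 they were the receptor kinase EPHA2 (Pearson 0.95, Spearman 0.94), the nuclear receptor PPARG (0.90, 0.82) and the cell cycle inhibitor CDKN1A (0.89, 0.88). For CLDN7 the first was the intestinal transcription factor CDX2 (0.95, 0.83), followed by C7H6orf106 and the zinc transporter SLC39A4. For CLDN3 they were CLEC16A (0.89, 0.88), the glucocorticoid-induced chaperone FKBP5 (0.86, 0.89) and PTS, an enzyme of biopterin synthesis. CLDN2 was most like TMEM151B (0.91, 0.78), coagulation factor F12 (0.89, 0.86) and LHFPL4. CLDN15 was most like SFT2D2 (0.96, 0.94), RNF167 and TMEM50B, and F11R like INTS3, a subunit of the Integrator complex (0.98, 0.97), SP2 and CLN8. For OCLN the named ones were the adiponectin receptor ADIPOR2 (0.91, 0.91) and the zinc-sensing receptor GPR39 (0.91, 0.77), for MARVELD2 SVOPL (0.90, 0.87) and the ion channel TRPV3 (0.86, 0.75), and for TJP1 the kinesin KIF1B (0.90, 0.88), the urea cycle enzyme CPS1 and MED13.

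Other junction genes were compared as lists. Of 17 other claudins measured, of 19 listed, 7 were lower and 10 higher in the high group, with a median difference of 0.02. Over all genes 57.2% were lower. Their mean signals, which cannot be ranked between probe sets, lay from 3.09 (CLDN16) to 6.47 (CLDN12). CLDN1, a barrier claudin of skin, ran from 3.87 to 6.28 over the 12 pigs, and CLDN10, which has anion- and cation-selective isoforms, from 3.63 to 6.02. An unadjusted p under 0.05 was reached by CLDN19, a kidney claudin, at -0.28 (SE 0.0988, limma adjusted p 0.621), and CLDN17, an anion pore, at 0.38 (SE 0.163, limma adjusted p 0.636). Over all genes 7.09% reached that unadjusted threshold. None of the 17 passed adjustment. Of 11 other membrane proteins of the tight junction 6 were lower, where 57.2% of all genes were, with a median difference of -0.07. Only EPCAM, the cell adhesion protein that stabilizes CLDN7, had an unadjusted p under 0.05, at -0.25 (SE 0.115, limma adjusted p 0.639). MARVELD3, a relative of OCLN and MARVELD2, was at -0.31 (SE 0.165) and the tricellular protein LSR at -0.23 (SE 0.125), while JAM3, a relative of F11R, was at 0.32 (SE 0.15).

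Of 21 cytoplasmic plaque and polarity genes 16 had the higher mean in the high group, with a median difference of 0.06, where 57.2% of all genes were lower, and 3 of the 21 had an unadjusted p under 0.05, where 7.09% of genes did. These were CGNL1 (paracingulin) at 0.66 (SE 0.241, limma adjusted p 0.624), AMOT at 0.31 (SE 0.127) and the multi-PDZ scaffold MPDZ at 0.38 (SE 0.169). Of 11 genes of adherens junctions and desmosomes 7 were lower, where 57.2% of all genes were. At an unadjusted p under 0.05 there were 2 of the 11, where 7.09% of genes were called. These were the intestinal cadherin CDH17 at -0.61 (SE 0.156) and the desmosome plaque gene PKP2 at -0.44 (SE 0.127). E-cadherin (CDH1) was at -0.25 (SE 0.124). No gene of these 4 lists passed adjustment. In males 10 of the 11 adherens junction and desmosome genes had the lower mean, where 51.6% of genes did, with a median difference of -0.28 against -0.01 over all genes.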

How the data were processed

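RNA of each pig, extracted with Qiazol and freed of DNA per the labels' protocols, was amplified with the Ambion WT Expression Kit and hybridized to 1 array. The authors deposited 1 log2 value for each probe set of each array. GCOS 1.1.1 is named in the submitters' processing notes. How background was corrected and values were summarized and normalized is not given in the sources consulted. Array medians ran from 4.02 to 4.16, so the values were used as deposited. Background compresses differences of dim probe sets. Precision is limited by the number of arrays.

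Of 47845 probe sets 123 controls were left out, and 26426 of the rest had 1 gene symbol, 0 several and 21296 none. Through unique synonyms of the RefSeq table of Sscrofa11.1, used for names and neighbours only, 422 symbols were updated, none of them a member. Probe sets with a mean above the 25th percentile, 2.29, were tested with limma 3.58.1 in R 4.3.3: feed efficiency with sex as an additive term, and interaction and within-sex differences from 4 means of sex and group. Adjusted p-values are Benjamini-Hochberg over 35791 probe sets, at a threshold of 0.05. Fold changes are powers of the log2 differences. Single values were also tested by exact permutation within sex, and correlations by 100000 permutations.

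The members, the lists and the naming rule (unadjusted p under 0.05 by list, and the 3 most alike genes per member) were chosen with earlier results of these data known. Genes named outside that rule, such as MARVELD3, LSR, JAM3 and CDH1, were chosen after their values were seen. On simulated data for feed efficiency over 35791 probe sets, 28% of changes of 0.6 log2 units and 54% of changes of 1 were recovered. That simulation used independent normal noise and held changes of 0.6, 1, 1.5 and 2 log2 units at once. These shares need not hold for the deposited values, where no probe set passed adjustment for feed efficiency. Whether pigs shared litters or pens is not stated. The tests treat the pigs as independent, and if some shared a litter or pen the p-values could be too small. No sequences of the members or probes were used.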

Additional observations from a re-analysis of the deposited data

Results flagged for a closer look

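Among 36 groups of 6 pigs checked for a value far from the others, 2 stood out, and chance alone gives about 1 in 20. The first was CLDN7 in high feed efficiency replicate 1, at 9.09 log2 units, with the other 5 high pigs at 9.57 to 9.84. This is the pig with low enterocyte and high gastric markers, and the part of its cell makeup in the CLDN7 value was not tested. The second was the dimmest OCLN probe set in high replicate 5, at 2.16 against 1.42 to 1.60. Its mean lies below the highest negative control.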

How the results depend on the processing

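No paired analysis was possible because the replicate numbers follow accession order and do not link pigs across groups. The count of tight junction genes at an unadjusted p under 0.05 for feed efficiency, 2, was 0 after quantile normalization and 0 with array spread as a covariate. The same count for sex, 1, was 0 after quantile normalization. The males' count of 5 genes without overlap was 3 after quantile normalization, an alternative chosen after seeing the data. MARVELD2, called in males at an unadjusted p under 0.05 as deposited, had a limma unadjusted p of 0.0764 after that normalization. The sign by feed efficiency turned for CLDN3 (0.053 after quantile normalization, 0.0070 with array weights), CLDN7 (0.011 as the mean of its probe sets), CLDN2 (0.027 after quantile normalization), CLDN15 (0.051 with the spread covariate) and the second probe sets of CLDN2 (0.23) and CLDN15 (0.096, both with that covariate). After quantile normalization it turned for sex in CLDN7 (0.0079) and MARVELD2 (0.00082), and in females for CLDN7 (0.0031) and MARVELD2 (0.014). The cause was not tested.

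Leaving out 1 pig at a time, the counts at an unadjusted p under 0.05 ran from 0 to 2 for feed efficiency, 1 to 3 for sex and 1 to 3 for the interaction. Within the sexes they ran from 2 to 4 in males and 0 to 1 in females. Probe sets called over the whole array ran from 0 to 3 in males and 0 to 1 in females. Differences whose sign turned ran, by feed efficiency, from -0.17 to 0.026 for CLDN3, -0.21 to 0.097 for CLDN2, -0.060 to 0.042 for TJP1, and for second probe sets from -0.25 to 0.085 (CLDN3), -0.17 to 0.53 (CLDN7) and -0.25 to 0.096 (CLDN2). By sex they ran from -0.059 to 0.022 for MARVELD2 and -0.040 to 0.086 for TJP1, and for the interaction from -0.26 to 0.032 for CLDN7 and -0.19 to 0.16 for F11R. Within males CLDN3 ran from -0.046 to 0.39, and within females CLDN4 from -0.21 to 0.039, CLDN15 from -0.22 to 0.035 and MARVELD2 from -0.066 to 0.038. The difference of CLDN4 over all pigs ran from -0.63 to -0.41. Leaving out the sex term, changing the filter on low values and an intensity trend with robust variances turned no sign among the results recomputed under them.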

Other observations

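The second CLDN7 probe set had a wide range, 3.29 to 6.28 log2 units, and its SD over 12 pigs exceeded that of 98.0% of the probe sets tested. It was at 3.30, 3.29 and 3.38 in high replicate 4 and low replicates 1 and 5, at 4.25 in high replicate 2, and at 4.98 to 6.28 in the other 8 pigs. The 3 lowest pigs belong to both groups and both sexes, and all 3 were among the 4 highest pigs of the main CLDN7 probe set. The stomach claudin CLDN18, below 4.57 in 11 pigs, was at 6.61 in high feed efficiency replicate 1, next to 7.32 for GKN2 and 9.90 for MUC5AC in the same array.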
